A study of Mus musculus with 6 samples.

Results

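The T cell receptor beta chain is encoded by V, D, J and C segments of the Trb locus on mouse chromosome 6, and 53 of the 47643 genes in the deposited table carry a symbol that starts with Trbv, Trbd, Trbj or Trbc. They comprise 35 V, 2 D, 14 J and 2 C segments, and each V or C segment is described below as its share of the counts of its class in a library. The libraries are polyadenylated RNA from wild-type BALB/c thymus, from cells labelled as iNKT and as the NKT1 subset, with 3 CD4-positive and 3 CD4-negative libraries. The groups differ by the CD4 label alone, and the labels read here name no age, sex, sort gate or number of animals behind a library. Since no label ties a replicate to its own animal, each p-value reflects variation among these 6 libraries, part of which may be technical.

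A beta chain gene is assembled in a developing thymocyte when a D segment joins a J segment and a V segment joins both. The joined exon is then spliced to Trbc1 or Trbc2, which encode nearly the same constant region. Invariant natural killer T (iNKT) cells recognise lipids on CD1d through a nearly fixed alpha chain, made from Trav11 or its near copy Trav11d with Traj18. Their beta chains are junctionally diverse, but in mice they draw mostly on the Vβ8 family (Trbv13-1, Trbv13-2 and Trbv13-3), Vβ7 (Trbv29) and Vβ2 (Trbv1). NKT1 cells are the iNKT subset marked by T-bet, a transcription factor encoded by Tbx21.

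The 5 V segments of those 3 families held most of the V counts in every library, and their variable exons are shown because the comparison turns on them. Each line gives the coding part of the exon on the plus strand, in coordinates of GRCm38 (the mm10 assembly), taken from GENCODE M21. The reference is C57BL/6J, so BALB/c alleles may differ. The capitals mark the codon of the conserved cysteine that precedes the junction with D and J.
Trbv13-1 (chr6:41116175-41116468): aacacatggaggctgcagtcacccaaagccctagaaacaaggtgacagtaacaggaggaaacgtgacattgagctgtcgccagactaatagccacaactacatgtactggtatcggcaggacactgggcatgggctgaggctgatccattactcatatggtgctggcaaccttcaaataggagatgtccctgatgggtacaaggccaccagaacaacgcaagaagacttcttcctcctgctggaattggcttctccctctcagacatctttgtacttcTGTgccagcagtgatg
Trbv13-2 (chr6:41121539-41121832): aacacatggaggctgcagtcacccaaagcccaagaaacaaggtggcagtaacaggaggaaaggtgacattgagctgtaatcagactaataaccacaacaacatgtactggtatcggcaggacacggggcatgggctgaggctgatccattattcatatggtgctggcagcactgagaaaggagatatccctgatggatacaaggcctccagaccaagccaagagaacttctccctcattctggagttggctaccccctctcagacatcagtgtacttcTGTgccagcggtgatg
Trbv13-3 (chr6:41130292-41130585): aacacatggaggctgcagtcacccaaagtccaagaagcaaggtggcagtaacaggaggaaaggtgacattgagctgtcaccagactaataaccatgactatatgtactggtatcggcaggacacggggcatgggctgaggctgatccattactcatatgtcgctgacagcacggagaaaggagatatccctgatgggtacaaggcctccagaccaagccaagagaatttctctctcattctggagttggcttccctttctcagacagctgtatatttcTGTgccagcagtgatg
Trbv29 (chr6:41271587-41271881): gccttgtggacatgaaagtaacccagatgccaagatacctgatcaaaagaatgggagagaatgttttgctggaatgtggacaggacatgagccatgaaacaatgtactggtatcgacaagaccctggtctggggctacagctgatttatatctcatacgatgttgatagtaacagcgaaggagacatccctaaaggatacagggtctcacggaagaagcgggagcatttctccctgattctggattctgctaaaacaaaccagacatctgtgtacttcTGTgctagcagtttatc
Trbv1 (chr6:40891591-40891885): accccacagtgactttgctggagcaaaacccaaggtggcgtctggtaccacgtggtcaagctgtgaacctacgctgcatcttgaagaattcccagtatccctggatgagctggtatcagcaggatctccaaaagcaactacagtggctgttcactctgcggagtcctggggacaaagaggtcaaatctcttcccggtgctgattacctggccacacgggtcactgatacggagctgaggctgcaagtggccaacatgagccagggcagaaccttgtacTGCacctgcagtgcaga
The 3 Trbv13 exons were 86.1% to 91.8% identical to each other. Trbv29 was 61.6% to 63.5% identical to them, and Trbv1 was 50.5% to 52.6% identical to the other 4. Of the 291 stretches of 50 bases in the annotated Trbv13-2 transcript, 1 also occurred in another Trb segment, as did 1 of 291 in Trbv13-3, while Trbv29, Trbv13-1 and Trbv1 shared none.

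In both groups about 88% of the V counts came from these 5 segments. The share was 89.1%, 88.8% and 86.8% in the CD4-positive libraries (replicates 1, 2 and 3 in that order, here and below) and 87.5%, 88.2% and 89.4% in the CD4-negative libraries. The groups overlapped, with means of 88.2% ± 1.28 and 88.4% ± 0.94 (SD, n = 3 each; exact 2-sided permutation p = 0.90). For comparisons of level between segments, counts were divided by the annotated exonic length. On that per-length scale Trbv13-2 came first with a mean of 27.8% of V over the 6 libraries, then Trbv29 with 25.3% and Trbv13-1 with 19.0%, and Trbv13-3 (8.89%) and Trbv1 (8.45%) lay close together. The sixth, Trbv17 (Vβ9), held 1.55%. The order of Trbv13-2 and Trbv29 was not the same in all libraries, and that of Trbv13-3 and Trbv1 was not either.

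Within the 5 segments, CD4-positive libraries gave a larger share to Trbv29 and a smaller share to Trbv13-1. Trbv29 held 31.3%, 26.1% and 28.8% of V counts in the CD4-positive libraries, and 19.0%, 18.3% and 24.7% in the CD4-negative ones. The groups did not overlap, so the CD4-positive library was necessarily higher at each of the 3 replicate numbers. The means were 28.7% ± 2.60 and 20.6% ± 3.50 (SD, n = 3 each), a difference of 8.10 percentage points (exact 2-sided permutation p = 0.10, which is the smallest that 3 against 3 libraries allow; 0.333 after Benjamini-Hochberg adjustment over the 10 values tested this way, where values with overlapping groups all came to 1.0). CD4-negative replicate 3 stood nearest to the CD4-positive libraries. Its Wilson 95% interval of 23.9% to 25.4% met that of CD4-positive replicate 2, 25.4% to 26.9%. Intervals cover counting error only. In bulk RNA, more cells that use a segment and more receptor RNA per such cell cannot be told apart.

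Trbv13-1, the Vβ8.3 segment, held 15.4%, 16.9% and 18.3% of V counts in the CD4-positive and 22.4%, 23.2% and 19.4% in the CD4-negative libraries. All CD4-positive values were below all CD4-negative ones. The means were 16.9% ± 1.45 and 21.6% ± 2.01 (SD, n = 3 each), and the difference was -4.75 percentage points (exact 2-sided permutation p = 0.10, the smallest possible; adjusted 0.333). Again CD4-negative replicate 3 was nearest to the other group, and its interval of 18.7% to 20.1% overlapped that of CD4-positive replicate 3, 17.7% to 19.0%. Trbv29 thus had 2.03, 1.55 and 1.57 counts per Trbv13-1 count in the CD4-positive libraries, against 0.850, 0.787 and 1.27 in the CD4-negative ones. This ratio was formed after the values were seen and was not tested.

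Shares of a closed total depend on each other: where 1 segment takes more, the others must take less. As a share of V counts other than Trbv29, a total chosen after the values were seen, Trbv13-1 held 22.5%, 22.9% and 25.8% in the CD4-positive and 27.7%, 28.4% and 25.7% in the CD4-negative libraries. On that total the groups overlapped, through the replicate 3 libraries (difference -3.54 percentage points, exact 2-sided permutation p = 0.20). Trbv29 as a share of V counts other than Trbv13-1 still did not overlap, at 37.1%, 31.4% and 35.2% against 24.5%, 23.8% and 30.6%.

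**Figure D1:**
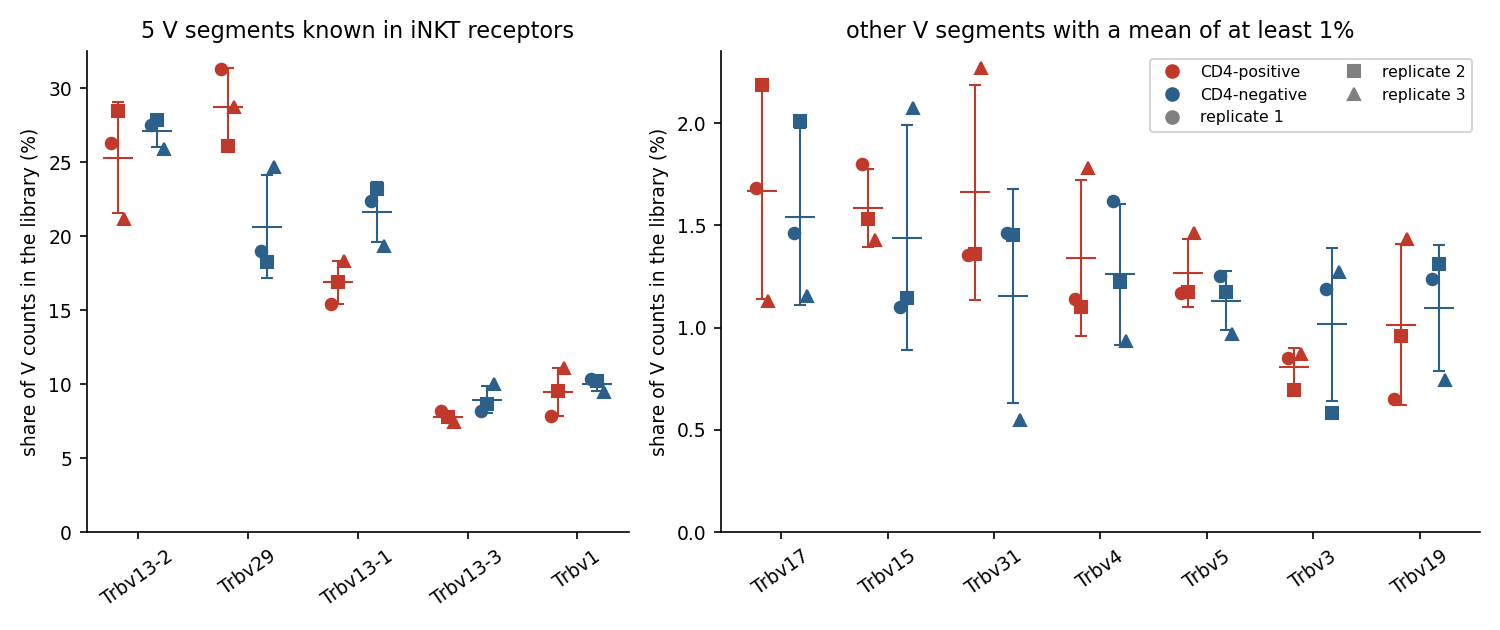
Share of V counts in percent (y) for the 12 V segments with a mean of at least 1% in either group (x), by library. Symbols are replicates, red is CD4-positive and blue CD4-negative, and bars are the mean ± SD of 3 libraries. Trbv29 is higher, and Trbv13-1 and Trbv13-3 are lower, in all 3 CD4-positive libraries. For Trbv13-3 the nearest values of the groups are 8.16% and 8.20%. The 7 segments on the right overlap between groups.

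Trbv13-3 (Vβ8.1) held 8.16%, 7.80% and 7.41% of V counts against 8.20%, 8.67% and 9.98% (means 7.79% ± 0.37 and 8.95% ± 0.93, SD, n = 3 each; exact 2-sided permutation p = 0.10, adjusted 0.333). The nearest libraries, 8.16% and 8.20%, differed by less than their counting error. As a share of V counts other than Trbv29 it overlapped, at 11.9%, 10.6% and 10.4% against 10.1%, 10.6% and 13.2%, so no difference separate from that of Trbv29 was seen for it. Trbv13-2 (Vβ8.2), the largest of the family, overlapped between groups at 26.3%, 28.5% and 21.1% against 27.6%, 27.9% and 25.9% (exact 2-sided permutation p = 0.70). Its direction rested on CD4-positive replicate 3: the difference of -1.81 percentage points became 0.28 without that library. The family as a whole, summed after the values were seen and not tested, held 49.9%, 53.2% and 46.9% of V counts in the CD4-positive libraries and 58.1%, 59.7% and 55.3% in the CD4-negative ones. Among V counts other than Trbv29 the family overlapped between groups, at 72.7%, 72.0% and 65.8% against 71.8%, 73.1% and 73.3%.

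Trbv1 (Vβ2), which lies farthest from the D segments, overlapped between groups at 7.84%, 9.53% and 11.1% against 10.3%, 10.2% and 9.48% (exact 2-sided permutation p = 0.80). Its difference of -0.53 percentage points became 0.29 without CD4-positive replicate 1. The effective number of V segments, the exponential of the Shannon entropy of the V shares, was 6.75, 6.95 and 7.56 in CD4-positive and 7.52, 7.32 and 7.18 in CD4-negative libraries. Those groups overlapped too (exact 2-sided permutation p = 0.50).

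Libraries of the same group also differed in V usage. The distance between libraries was taken as the percentage points of V counts that would have to move to another segment to make their V shares equal. It was 6.51 to 9.64 points for the 3 pairs within CD4-positive cells, and 2.71 to 10.1 points for those within CD4-negative cells. The 9 pairs between groups ranged from 6.87 to 14.3 points with a median of 10.3. CD4-negative replicates 1 and 2 were the closest pair, and CD4-negative replicate 3 was 9.07 and 10.1 points from them and 6.87 from CD4-positive replicate 2.

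Outside the 5 segments, 7 others reached a mean of 1% in at least one group: Trbv17, Trbv31, Trbv15, Trbv4, Trbv5, Trbv19 and Trbv3. Their single values ran from 0.55% to 2.27% of V counts, and both groups overlapped for each. Trbv31 (Vβ14), the only V segment that lies beyond the C segments and in reverse orientation, spanned that whole range. It held 1.36%, 1.36% and 2.27% in the CD4-positive and 1.46%, 1.45% and 0.55% in the CD4-negative libraries, so the replicate 3 libraries were its extremes in opposite directions. Trbv17 held 1.68%, 2.19% and 1.13% against 1.46%, 2.01% and 1.15%. Trbv4 and Trbv5, which a longer transcript (5830405F06Rik) overlaps on the same strand, had fractional estimated counts in 5 and 6 libraries, so RSEM divided some reads between them and another gene.

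In BALB/c mice, endogenous retroviral superantigens presented with MHC class II are known to delete thymocytes with Vβ3, Vβ5, Vβ11 or Vβ12 (Trbv26, Trbv12-1 and Trbv12-2, Trbv16, Trbv15). These 5 segments together held 3.07%, 2.88% and 2.68% of V counts in CD4-positive and 2.44%, 2.81% and 3.42% in CD4-negative libraries (exact 2-sided permutation p = 1.0). Trbv15 was the highest of them, with 1.80%, 1.53% and 1.43% against 1.10%, 1.14% and 2.08%. At the other end, Trbv26 had 2, 2 and 11 counts against 7, 5 and 19. Trbv12-2 lies between Trbv13-1 and Trbv13-2, yet it held only 0.53% to 1.03% of V counts. The summed level of 6 immature thymocyte markers (Rag1, Rag2, Ptcra, Dntt, Cd8b1 and Arpp21), all detected, was 46.3, 16.7 and 99.8 CPM (counts scaled to library size alone) in the CD4-positive and 51.4, 19.1 and 127 CPM in the CD4-negative libraries, highest in replicate 3 of each group. Cd8b1 alone gave 37.8, 12.0 and 37.3 against 39.4, 15.1 and 79.2 CPM. The part of these markers in the V shares was not tested.

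**Figure D2:**
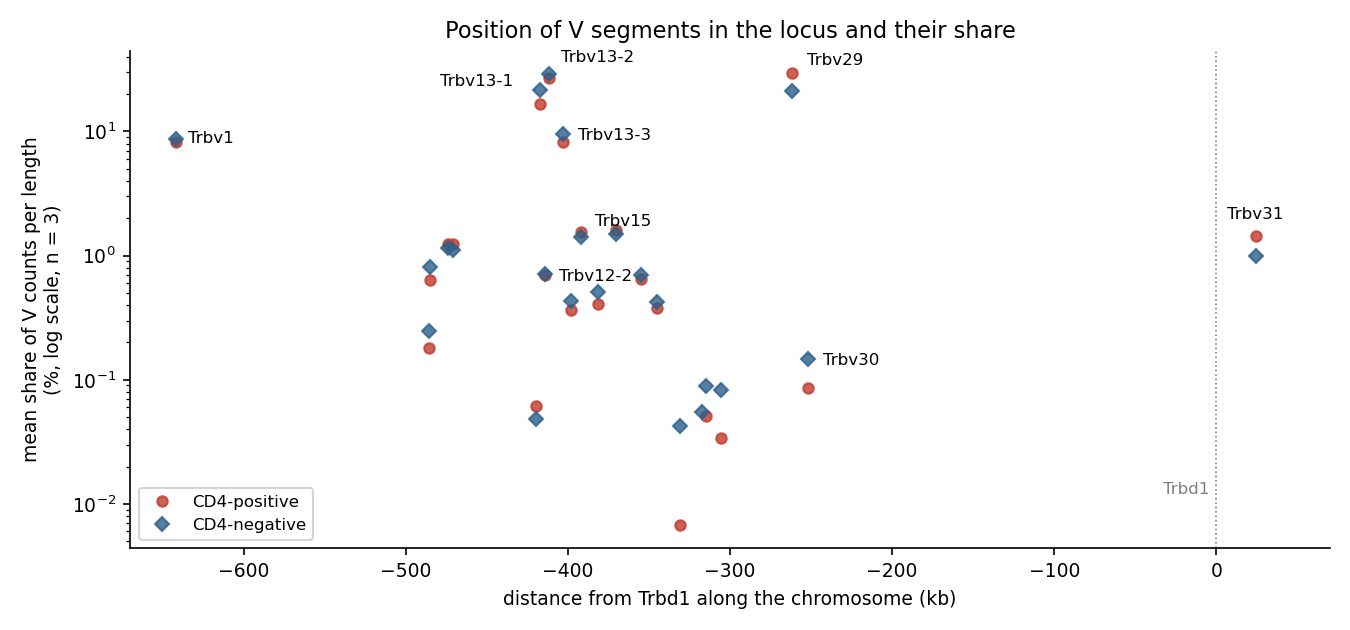
Mean share of V counts per exonic length (y, percent, log scale, n = 3 libraries) against distance from Trbd1 in kilobases (x, negative upstream), for V segments with a count; a group mean of 0 (Trbv23 in CD4-positive libraries) cannot be drawn. The 5 segments above 5% lie at several distances and next to segments below 1%.

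The 11 V segments with counts but under 1% summed to 2.15% to 3.16% of V counts per library. The share of Trbv30 (Vβ18) was lower in all CD4-positive libraries, on few reads. It had 13, 10 and 12 counts in CD4-positive and 15, 21 and 13 in CD4-negative libraries. Trbv23, at 0 in all CD4-positive libraries, had 3, 1 and 16 counts in CD4-negative libraries, most of them in replicate 3. Trbv24 (Vβ17), which GENCODE annotates as a pseudogene, was the one of 13 V pseudogenes with a count, at most 24 in a library. The other 12 V pseudogenes were at 0 throughout. RefSeq's table for GRCm38.p6 lists Trbv29 as a pseudogene and GENCODE as a functional V gene, and Trbv29 had 2108 to 5156 counts.

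No D or J segment had a count in any library, so J usage could not be given. The annotated J segments are 46 to 54 bases long and the D segments 12 and 14, and examples are shown because they are far shorter than the V and C segments (260 to 749 bases).
Trbd1 (chr6:41533201-41533212): gggacagggggc
Trbd2 (chr6:41542163-41542176): gggactgggggggc
Trbj1-1 (chr6:41533864-41533911): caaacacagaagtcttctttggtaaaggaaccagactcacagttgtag
Trbj2-7 (chr6:41543810-41543856): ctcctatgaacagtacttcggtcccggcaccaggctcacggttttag
Of 60 alpha chain J rows (Traj), 3 had a count, and Traj18 was listed at 0 in every library. These zeros in the table say nothing about which J segments the cells used. Trav11 and Trav11d together stood at 128, 182 and 175 CPM in the CD4-positive and 142, 146 and 144 CPM in the CD4-negative libraries. Trav11 alone was at 47.2, 22.9 and 99.2 CPM in the CD4-positive and 16.3, 18.6 and 3.51 CPM in the CD4-negative libraries, without overlap. Trav11d overlapped, at 80.7, 159 and 75.4 against 126, 127 and 140 CPM. How reads were divided between these near copies was not tested. Zbtb16, which encodes the iNKT regulator PLZF, was at 149, 100 and 71.2 CPM in the CD4-positive and 60.9, 64.7 and 58.7 CPM in the CD4-negative libraries, without overlap (adjusted p = 0.804 by edgeR), and its part in the V shares was not tested. Il2rb, Xcl1 and Cxcr3 were also detected in each library, and Tbx21 (T-bet) was at 301 to 605 CPM, so these defining markers were present in all 6 libraries. Of the other cell types given here, myeloid markers (3 of 3 with a count) summed to 0.222 to 1.65 CPM. Markers of gamma-delta T cells (5 of the 7 listed were in the table) summed to 436 to 507 CPM, most of it from the constant segments Tcrg-C1 and Tcrg-C2, with Trdc at 1.28 to 2.96 CPM. Sox13 of that list, a transcription factor gene, was at 8.01, 11.3 and 7.30 CPM in the CD4-positive and 2.79, 1.24 and 1.33 CPM in the CD4-negative libraries, without overlap (log2 2.29, SE 0.37, adjusted p = 0.0783 by edgeR). Trdc, Tcrg-C1 and Tcrg-C2 did not follow Sox13 and overlapped between groups. Tcrg-C1 was at 161, 147 and 165 CPM in the CD4-positive and 162, 144 and 174 CPM in the CD4-negative libraries. Tcrg-C2 was at 276, 280 and 284 against 282, 288 and 329 CPM. The part of gamma-delta T cells in the Sox13 difference was not tested.

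The constant segments Trbc1 and Trbc2 had the highest counts of all members, also per length, and Trbc2 exceeded Trbc1 in every library on both scales. Their coding sequences differ at 23 of 518 bases, 15 of them in coding exon 3, which is shown with the differing bases in capitals.
Trbc1 (chr6:41539229-41539335): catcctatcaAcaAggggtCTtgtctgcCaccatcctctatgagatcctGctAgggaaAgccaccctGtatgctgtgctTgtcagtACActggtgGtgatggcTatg
Trbc2 (chr6:41547772-41547878): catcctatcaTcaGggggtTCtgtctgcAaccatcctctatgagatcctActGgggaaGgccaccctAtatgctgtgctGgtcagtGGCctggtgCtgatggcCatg
The first coding exon, 375 bases long, holds a single difference, and 283 of the 698 stretches of 50 bases in the annotated Trbc1 transcript also occur in another Trb segment. Both had fractional estimated counts in all 6 libraries, so the split between them depends on how shared reads were assigned. Trbc1 held 37.2%, 31.0% and 30.8% of C counts in the CD4-positive and 34.2%, 33.9% and 38.4% in the CD4-negative libraries. The groups overlapped, with means of 33.0% ± 3.61 and 35.5% ± 2.52 (SD, n = 3 each; exact 2-sided permutation p = 0.50). The highest Trbc1 share of each group was in CD4-positive replicate 1 and CD4-negative replicate 3. These libraries also had the lowest mitochondrial share of all counts, 1.35% and 1.33%, against 3.51% to 5.19% in the other 4. They also had the highest Trbv29 share of their group, 31.3% and 24.7%. The part of that library property in either result was not tested. Without both libraries the Trbv29 difference was 8.81 percentage points, and with groups that did not overlap its direction could not turn.

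The CD4-negative libraries held fewer V counts per C count. The CD4-positive libraries had 3.80, 3.51 and 3.40 C counts per V count, and the CD4-negative libraries had 4.21, 4.03 and 4.22. The groups did not overlap, with means of 3.57 ± 0.21 and 4.15 ± 0.10 (SD, n = 3 each). Per length, the summed V level was 52.2%, 56.0% and 57.3% of the C level in CD4-positive and 46.6%, 48.7% and 46.9% in CD4-negative libraries. The V counts include Trbv29, which had 5156, 3452 and 4173 counts in CD4-positive and 2108, 2186 and 3182 in CD4-negative libraries. The ratio of V to C was formed after the values were seen. Neither the ratio nor the part of Trbv29 in it was tested.

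**Figure D3:**
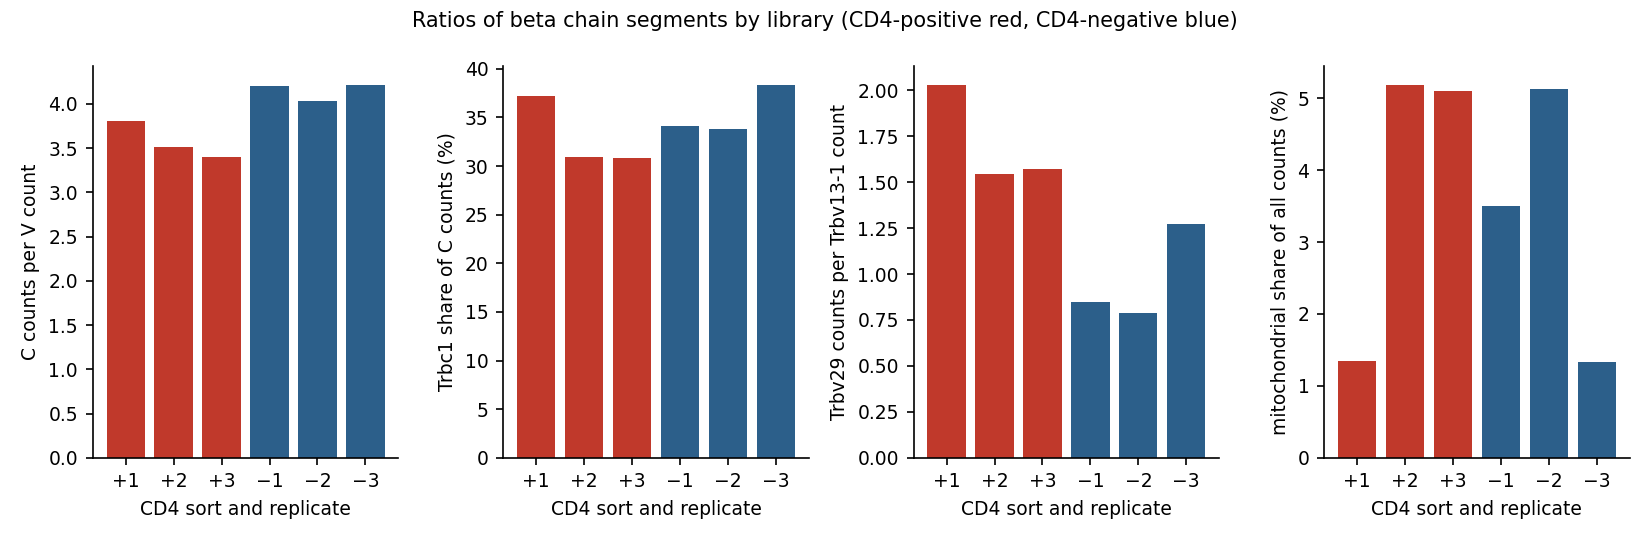
Bars give, by library (CD4-positive 1 to 3 in red, CD4-negative 1 to 3 in blue), the C counts per V count, the Trbc1 share of C counts, the Trbv29 counts per Trbv13-1 count and the mitochondrial share of all counts. C per V, where V includes Trbv29, and Trbv29 per Trbv13-1 do not overlap between groups. CD4-positive replicate 1 and CD4-negative replicate 3 share the lowest mitochondrial and the highest Trbc1 shares.

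Levels were compared next, as counts relative to the whole library. From here on, CPM of segments and of single genes were also scaled by edgeR's TMM factors (0.947 to 1.02), unless said otherwise. The marker values above, the marker sums and the floor for 0 were not. Totals were 40480468 to 53145898 estimated counts per library. A V segment at 0 could still have been present below 3 counts, which is 0.0564 to 0.0741 CPM. No such floor holds for the D and J segments, whose zeros do not measure their use. Of the 53 segments, 20 had enough counts to be tested, 5 V segments with at most 24 counts were left out by the filter on low counts, and 28 were at 0. By edgeR's quasi-likelihood test 0 of the 20 differed at an adjusted p under 0.05, where 0.212% of all 12760 tested genes did, and 0 of the 20 had an unadjusted p under 0.05, where 4.44% of all genes did. DESeq2 called 0 of 25 members after adjustment, where it called 0.886% of all genes with an adjusted p. It gave 2 of the 25 an unadjusted p under 0.05 (Trbv23 and Trbv31), where 3.94% of all its genes had one. Of the 20 log2 fold changes 10 were above and 10 below 0, with a median of 0.01 beside -0.01 for all tested genes, and they ran from -0.60 to 0.75. The groups did not overlap in TMM-scaled CPM for 1 of the 20, Trbv30, and for 9.41% of all tested genes. Trbv30 was lower in CD4-positive cells, as were 4.57% of all genes in this sense, and 0 of the 20 were higher, against 4.84%. Cd4, which checks the labels, was at 508, 401 and 450 CPM in the CD4-positive and 16.0, 10.9 and 41.2 CPM in the CD4-negative libraries. The highest CD4-negative value was in replicate 3, which was also nearest to the CD4-positive libraries in Trbv29 and Trbv13-1 share, and its part in those shares was not tested.

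The members with the smallest p in edgeR were Trbv31, Trbv29, Trbv13-1, Trbv5 and Trbv30, all with an adjusted p of 1.0. Trbv29 stood at 106, 66.5 and 80.4 CPM in the CD4-positive and 45.3, 40.4 and 83.0 CPM in the CD4-negative libraries. CD4-negative replicate 3 lay among the CD4-positive values, and the other 2 CD4-negative libraries below all of them. The log2 fold change was 0.58 (SE 0.31, unadjusted p = 0.101 by edgeR), and without CD4-negative replicate 3 it was 0.98 with an adjusted p of 0.229. Trbv31 was at 4.58, 3.47 and 6.34 against 3.48, 3.22 and 1.85 CPM (log2 0.75, SE 0.34). Trbv13-1 was at 52.2, 43.0 and 51.3 against 53.4, 51.4 and 65.2 CPM (log2 -0.21, SE 0.17), and its log2 fold change was -0.097 without CD4-negative replicate 3. Trbv30 was low in both groups, at 0.23 ± 0.04 and 0.35 ± 0.03 CPM.

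**Figure D4:**
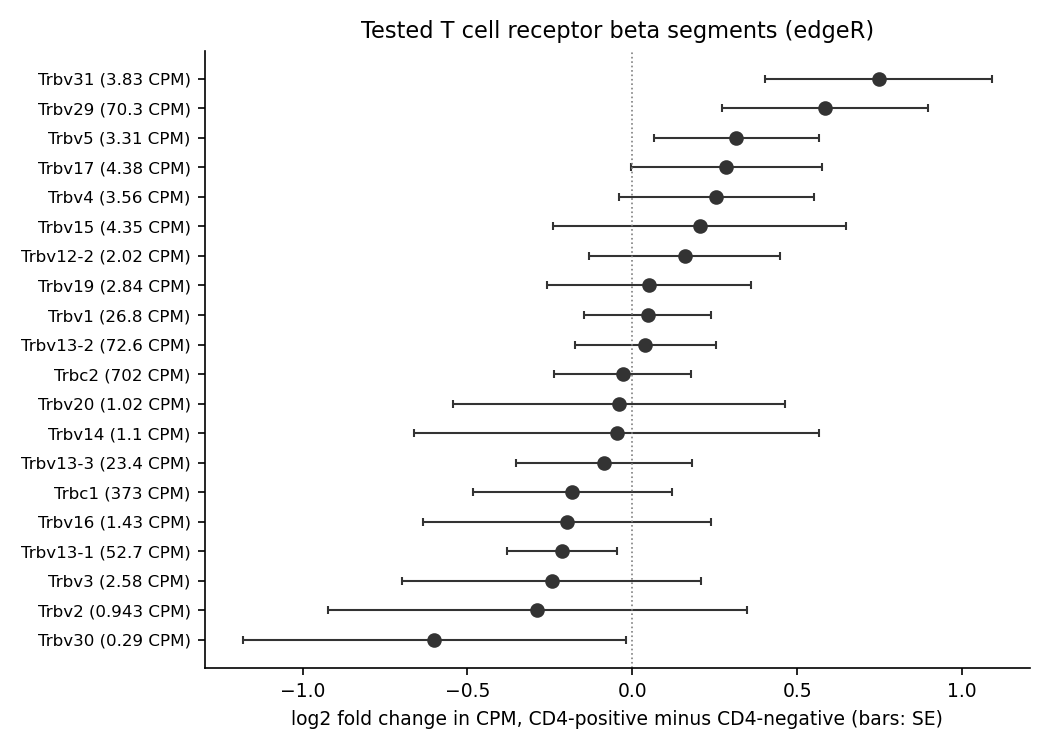
Log2 fold change in CPM, CD4-positive minus CD4-negative (x), for the 20 tested segments (y, with the mean CPM of both groups in brackets); bars are the SE from edgeR with 3 libraries per group. No segment passed the test, and the values run from -0.60 for Trbv30 to 0.75 for Trbv31.

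Total beta chain transcripts did not separate the groups. They summed to 1625, 1149 and 1230 CPM in the CD4-positive libraries and 1241, 1115 and 1756 CPM in the CD4-negative libraries (exact 2-sided permutation p = 0.80). The highest total of each group was in the library with the low mitochondrial share. Trbc2 was at 694 ± 101 against 709 ± 148 CPM and Trbc1 at 350 ± 112 against 397 ± 130 CPM (SD, n = 3 each).

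Genes that act with the beta chain were compared through a list of 17 genes of the receptor complex, of beta chain assembly and of T cell transcription. Of the 16 tested, 0 passed edgeR's test over all genes in either direction and 1 had an unadjusted p under 0.05, beside 4.44% of all genes. Groups did not overlap in CPM for 3 of the 16 (Runx1, Ets1 and Trac), beside 9.41% of all genes, and all 3 were higher in CD4-positive cells, beside 4.84%. The gene with the unadjusted p was Runx1, a transcription factor of T cell development, at 21.8, 24.9 and 22.8 CPM in the CD4-positive and 16.3, 16.2 and 9.73 CPM in the CD4-negative libraries (log2 0.72, SE 0.23, adjusted p = 0.692 by edgeR). Ets1, a transcription factor of lymphocytes, differed by 0.37 and Cd247, the zeta chain of the receptor complex, by 0.19 on the log2 scale. Cd3e, a signalling chain of the same complex, was at 367 ± 107 against 375 ± 162 CPM. Rag1, a subunit of the recombinase, was at 2.88, 3.06 and 44.8 CPM in the CD4-positive and 7.12, 2.13 and 15.6 CPM in the CD4-negative libraries, highest in replicate 3 of each group. Ptcra, the pre-receptor alpha chain that pairs with a new beta chain, was below the filter on low counts, at 0 to 0.99 CPM.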

How the data were processed

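The authors deposited 1 table of estimated counts per gene, not normalised, for 6 libraries of thymic NKT1 cells. Per the submitters' processing notes STAR, Picard, RSEM and the build mm10 were used, without versions or roles, and the sources read here name neither annotation nor strand setting. Libraries were TruSeq stranded mRNA, paired-end on a HiSeq4000, per the labels' protocols. All 53 segment identifiers, with version, were found in GENCODE M21, and older Vβ names come from RefSeq.

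Shares were taken from the estimated counts as deposited, and compared by exact 2-sided permutation over libraries (scipy 1.17.1). Levels were tested in edgeR 4.0.16 (R 4.3.3) on rounded counts of all genes: filterByExpr, TMM scaling, robust quasi-likelihood F test on group, Benjamini-Hochberg adjustment over 12760 genes at 0.05. The SE was derived from the F statistic. On counts simulated for this comparison (12610 genes in the fit), edgeR recovered 91.9% of 111 genes changed 4-fold and 22.5% of 89 changed 2-fold. There were 8 false calls of 130. The changed genes were drawn from those with a mean of at least 5 CPM, with a common dispersion for all genes. A filter at that mean kept 7 segments, and the rates do not cover the lower ones. Alternatives included DESeq2 1.42.0 without the filter on low counts, RLE scaling, other filters, the library naming scheme as a term, the replicate block and leaving out each library.

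Segments are named if their mean share is at least 1% in either group, if they belong to the iNKT or superantigen-deleted V segments, or if they are among the 5 with the smallest p. Others are named after their values were seen. Members, lists and tests were chosen with earlier results of these data known. One further list of cell type markers is not reported here.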

Additional observations from a re-analysis of the deposited data

How the results depend on the processing

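edgeR, or DESeq2 as one of its alternatives, called 0 segments under all 12 alternatives, including all leave-one-out fits (0 to 0). The smallest adjusted p of a member was 0.229, for Trbv29 without CD4-negative replicate 3. The differences in share of Trbv29 (6.81 to 10.1 percentage points) and of Trbv13-1 (-6.62 to -3.54) kept their direction in all 13 alternatives, as did Trbv13-3 (-1.54 to -0.38). As the groups did not overlap for these segments, leaving out libraries could not turn their direction, and the replicate block reused the same difference. The 13 alternatives are thus not 13 separate checks. Dividing by exonic length gave 8.25 for Trbv29 and -4.72 for Trbv13-1. Leaving out 1 library turned small differences around: 5-segment share -0.58 to 0.58, Trbv13-2 share -3.39 to 0.28, Trbv1 share -1.33 to 0.29, superantigen-deleted share -0.24 to 0.25 points, and total beta chain transcripts -181 to 157 CPM. The same held for the log2 fold changes of Trbv13-2 (-0.12 to 0.21), Trbv13-3 (-0.25 to 0.23), Trbv1 (-0.052 to 0.21), Trbv3 (-0.59 to 0.20), Trbv15 (-0.039 to 0.86), Trbv19 (-0.26 to 0.21), Trbc1 (-0.47 to 0.12) and Trbc2 (-0.15 to 0.15). The cause was not tested.

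Of the alternatives chosen after seeing the data, shares of V counts other than Trbv29 turned Trbv13-2 (1.34 points) and Trbv1 (0.67). Leaving out both libraries with a mitochondrial share under 2% turned the Trbv1 share (0.023), the superantigen-deleted share (0.16) and total transcripts (11.6 CPM). Replicates 1 and 2 alone, which share a library naming scheme, gave 10.1 points for Trbv29 and turned the 5-segment share (1.09), the superantigen-deleted share (0.35), the Trbc1 share (0.072) and total transcripts (209 CPM). The other scheme holds 1 library per group, where Trbv29 was at 28.8% and 24.7%.

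The replicate numbers were not taken to pair the libraries: deviations from the group means over all tested genes correlated at -0.08, 0.34 and 0.04 for numbers 1, 2 and 3, and not every library correlated best with its own number. With 3 libraries per group, these correlations cannot decide whether the libraries are paired. The library names share a tag within each number. The immature thymocyte marker sums were close within numbers 1 and 2 (46.3 and 51.4, 16.7 and 19.1 CPM). They were highest in number 3 of each group (99.8 and 127 CPM). Cd8b1 held most of the sums in numbers 1 and 2 (37.8 and 39.4, 12.0 and 15.1 CPM). Single markers were not all close within a number. On the scale of the sums, Rag1 was at 2.84 and 7.22 CPM in number 1. In number 3, Rag1 was at 45.5 and 14.8 CPM and Dntt at 13.0 and 25.7 CPM. With the replicate block edgeR called 0 segments and 0 of all genes, against 27 without it. The number of genes called was 44 without CD4-negative replicate 3 and 0 in each of the other 5 leave-one-out fits, 11 with the naming scheme as a term, 67 with no filter and 162 by DESeq2. With the block the paired Trbv29 difference was 8.10 points (exact sign-flip p = 0.25, the smallest possible). The planned results on J segments could not be run because all J counts were 0. With 3 libraries per group the exact tests cannot pass 0.05.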
